A study of Mus musculus with 2 samples.

Results

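The Gnas locus on mouse chromosome 2 was followed through its 2 annotated genes, the protein-coding gene Gnas and its antisense gene Nespas, and through all of their transcripts. Members were chosen by gene symbol, with earlier results of these data known. This gave 2 of 55536 genes and 27 of 141864 transcripts, 24 of them from Gnas and 3 from Nespas. The tissue was the adrenal gland of 2-month-old female B6CASTF1/J mice, an F1 hybrid strain, with no treatment or mutation named in the labels. There was 1 group of 2 libraries, numbered as biological replicates 1 and 2 and called animal 1 and animal 2 here. The labels conflict on the animals: the library descriptions give the same animal number to both, the biosample descriptions give different numbers, and the donor entry is shared. The values were not split by parental allele, so imprinted expression itself was not measured.

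Gnas is an imprinted gene whose alternative first exons are spliced to a shared set of downstream exons. As background, the Gs start makes the stimulatory G protein alpha subunit (G alpha s), which couples hormone receptors to adenylyl cyclase and is used from both parental copies in most tissues and mainly from the maternal copy in some. The Nesp start makes a secretory granule protein of neuroendocrine cells and is used from the maternal copy. The XL start makes an extra large form of G alpha s, the exon 1A start makes noncoding RNA, and Nespas runs antisense to the Nesp exon, and all 3 are used from the paternal copy. In the adrenal cortex the receptor for the pituitary hormone ACTH signals through G alpha s.

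The sequences that separate the forms are shown first, because the levels below turn on them. The Gs transcripts Gnas-208, Gnas-206 and Gnas-207 differ where exon 2 is joined to exon 4. In mm10 exon 3 lies at chr2:174336747-174336791 on the + strand and has 45 bases. Exon 4 lies at chr2:174341653-174341707 and has 55 bases, or 58 when it starts 3 bases earlier, at 174341650. Each line gives the last 20 bases of exon 2 and the first 20 bases of the shorter exon 4 in lower case, with the variable bases in capitals. Gnas-206 has none.
Gnas-208: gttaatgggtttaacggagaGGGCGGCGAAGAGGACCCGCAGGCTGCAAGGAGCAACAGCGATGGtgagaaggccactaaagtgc
Gnas-206: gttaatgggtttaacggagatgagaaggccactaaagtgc
Gnas-207: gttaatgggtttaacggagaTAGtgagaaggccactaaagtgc
The coding lengths followed from these bases: 1182 bases in Gnas-208, 1137 in Gnas-206 and 1140 in Gnas-207. Exon 3 is the exon that separates the long from the short form of G alpha s.

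The 3 protein-coding starts of the locus have unlike first coding bases, shown with the start codon in capitals. All 3 open with ATG, and the XL and Gs starts also share the next codon, GGC. The Nesp coding sequence starts at chr2:174284674 and has 759 bases, the XL coding sequence starts at chr2:174297862 and has 3399 bases, and the Gs coding sequence starts at chr2:174330296.
Nesp coding start: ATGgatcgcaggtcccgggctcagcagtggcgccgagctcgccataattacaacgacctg
XL coding start: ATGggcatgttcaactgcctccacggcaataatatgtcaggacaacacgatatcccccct
Gs coding start: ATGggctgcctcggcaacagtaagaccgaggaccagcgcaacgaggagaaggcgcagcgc
Gnas-209 and Gnas-224 carry a further annotated coding sequence of 2175 bases that starts 178 bases after the XL start codon, in a different reading frame. This is the frame of the protein known as ALEX. Gnas-209 has the same RNA sequence as Gnas-201, and Gnas-224 the same as Gnas-223, so RNA reads cannot divide the XL form from the ALEX form of each pair.

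**Figure D1:**
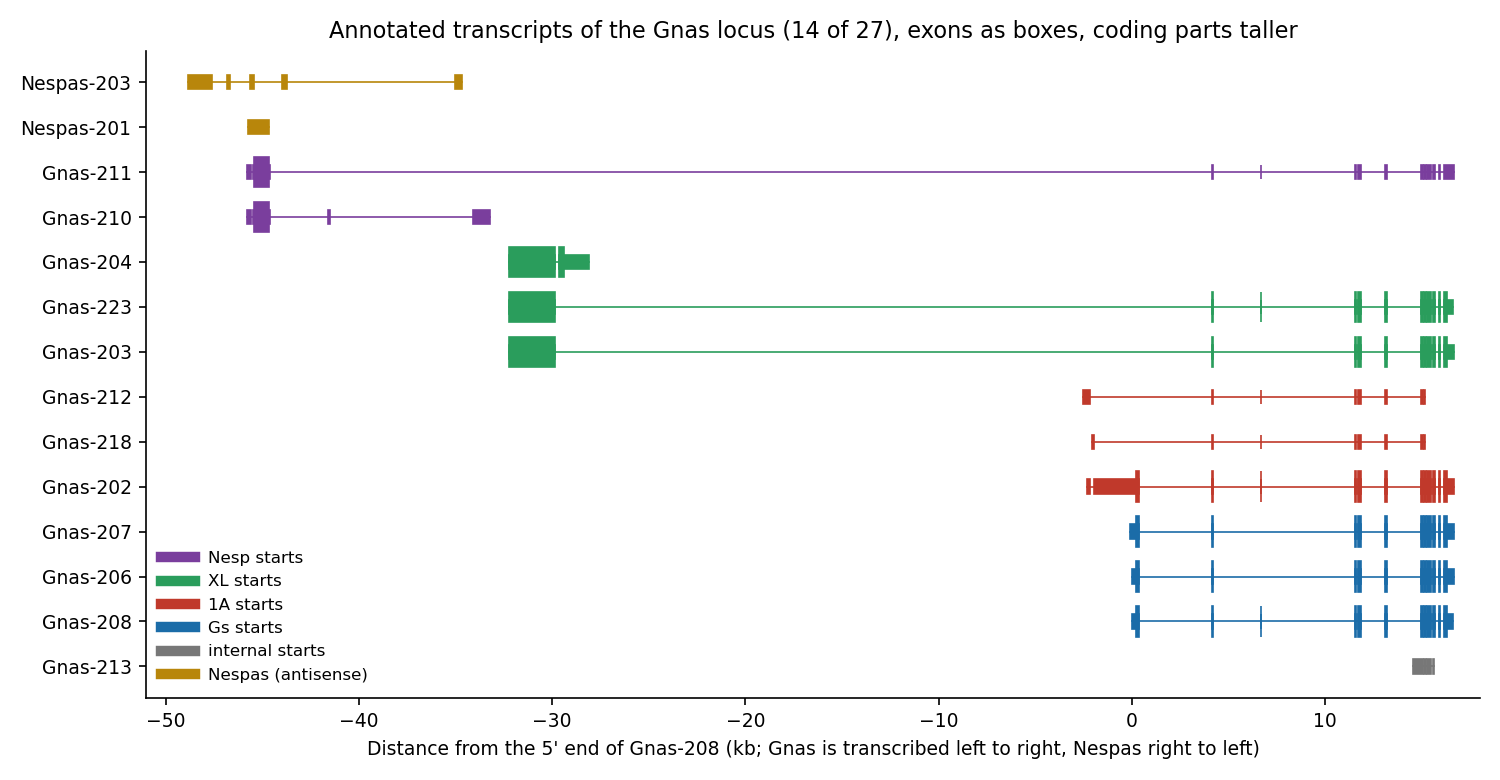
Annotated transcripts of the locus (14 of 27 shown), drawn to scale by distance in kb from the 5′ end of Gnas-208, with exons as boxes, coding parts as taller boxes and colours for the class of start. The Nesp, XL, 1A and Gs starts lie from left to right, and all of their full-length transcripts share the exons at the right end.

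RefSeq (build GRCm38.p6) lists promoter windows at 3 of these starts, and the 250 bases before the Nesp and 1A starts are printed because they share a run of 10 bases, in capitals. The Nesp window is chr2:174284070-174284319 and the 1A window is chr2:174327499-174327748, both on the + strand. The 1A window overlaps the first exon of the noncoding transcript Gnas-212.
Nesp upstream: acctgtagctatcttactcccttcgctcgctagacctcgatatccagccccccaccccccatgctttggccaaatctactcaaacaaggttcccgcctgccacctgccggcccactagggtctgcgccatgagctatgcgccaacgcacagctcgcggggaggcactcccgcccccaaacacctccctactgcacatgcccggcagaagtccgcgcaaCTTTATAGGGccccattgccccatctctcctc
1A upstream: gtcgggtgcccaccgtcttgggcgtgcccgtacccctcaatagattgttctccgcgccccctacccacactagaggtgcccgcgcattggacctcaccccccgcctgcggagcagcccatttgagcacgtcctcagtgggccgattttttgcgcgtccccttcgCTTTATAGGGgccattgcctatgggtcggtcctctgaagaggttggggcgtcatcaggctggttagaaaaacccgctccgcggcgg
The run began 32 bases before the Nesp start and 86 bases before the 1A start. It was picked after the sequences were read and occurred, on either strand, in 7 of 32841 RefSeq promoter windows (0.0213%), 3 of them Gnas entries for these 2 starts, since the 1A start has 2 overlapping windows. Its inner motif TTTATA was present in 12.4% of windows, the GC box core GGGCGG in 32.7%, the cyclic AMP response element core CGTCA in 17.8% and the CCAAT box in 33.9%. The Nesp window held 1 GGGCGG, no CGTCA and no CCAAT, and the 1A window held no GGGCGG, 1 CGTCA and 1 CCAAT. The window before the Gs start held neither TTTATA nor CCAAT, 2 GGGCGG and 1 CGTCA. Its GC content was 80.0% with 29 CpG, against 61.6% with 14 for Nesp, 63.2% with 21 for 1A and medians of 52.4% and 6 over all windows. A match of letters is a description and not a measured binding site.

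The gene tables summed to 34203664 and 35959484 expected counts in animals 1 and 2, and spike-in RNAs took 0.909% and 0.760% of all counts. The tissue label was met by the markers of both adrenal compartments. Star, which carries cholesterol into mitochondria in steroid cells, was at 4122 and 4634 TPM (transcripts scaled to a fixed total, a level per length). Chga, a granule protein of the catecholamine-making chromaffin cells of the medulla, was at 598 and 510 TPM. Markers of other cells differed between the animals too. All 3 brown fat markers were higher in animal 2, with a summed level of 554 and 1118 TPM: Ucp1 was at 196 and 429 TPM, Cox8b at 258 and 520 TPM and Cidea at 99.6 and 169 TPM. All 3 kidney markers had 0 counts in animal 2, while animal 1 had 350 for Kap, 91 for Slc34a1 and 77 for Umod. The erythroid markers Hba-a1 and Hbb-bs were higher in animal 2 (793 and 1351 TPM summed), and the macrophage markers Lyz2, C1qa and C1qb were higher in animal 1 (107 and 96.6 TPM summed). In bulk tissue, fewer cells of a type and less RNA per cell cannot be told apart.

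Gnas (ENSMUSG00000027523.19; chr2:174284320-174346744, + strand, 62425 bases) was among the most abundant messages of the gland. It had 41343 expected counts in animal 1 and 51575 in animal 2, or 0.121% and 0.143% of all gene counts. The level was 728 TPM for animal 1 and 962 TPM for animal 2 (845 ± 166, SD, n = 2). It ranked 22 and 21 among 22015 nuclear protein-coding genes in the respective animals. With counts scaled between libraries by the trimmed mean of M-values, Gnas was 1.23-fold higher in animal 2, a log2 ratio of 0.30, with an exact 95% counting interval of 1.22-fold to 1.25-fold. Of 12171 genes with at least 100 mean counts, 12.8% were 1.2-fold or more higher in animal 2 and 16.9% were so in animal 1, and 10.3% had a ratio at or above that of Gnas. Scaled by total counts alone the ratio was 1.19, under the 1.2-fold line. With 1 library per animal it has no replicate check.

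A second transcript table, made by the authors from reads and a transcript index, gave Gnas 46316 and 57401 estimated counts, a scaled count 1.196-fold higher in animal 2 and just short of 1.2-fold. There 11.7% of genes were 1.2-fold or more higher in animal 2 and 18.7% in animal 1. The summed level had the opposite order, 1483 tpm for animal 1 against 1394 tpm for animal 2. The order rested on 1 short transcript, Gnas-218: without it the sums were 1237 and 1394 tpm. The signal recognition particle RNA 7SL took 33.1% and 20.4% of all TPM in the first quantification and 0.000720% and 0.000234% in the second. Levels set across the 2 tables are therefore on different scales. In the first quantification the unlike 7SL shares also put the TPM of the 2 animals on different scales.

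Of the 27 transcripts, 16 are annotated as protein-coding, 6 as processed transcripts and 2 as retained introns, and 3 are the antisense Nespas forms. At least 1 TPM in either animal and either table was reached by 17 of them, and by 7 in both animals and both tables. Of all 27, 13 held no stretch of 31 bases that is absent from the other members, so their values depend on how each tool divided shared reads. Gnas-222 had counts and levels of 0 in both animals and both tables.

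The transcripts were grouped by annotated 5′ end, with ends within 2 kb of each other in 1 class. This rule joined the 1A and Gs starts, whose nearest ends lie 1983 bases apart. The joined class held 96.3% and 98.1% of Gnas TPM in animals 1 and 2, and 97.7% and 98.1% in the second table. A gap of 1 kb, chosen after the annotation was seen, parted them and is used below. Gs starts alone held 95.1% and 97.1% of Gnas TPM, and 76.9% and 94.0% in the second table.

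**Figure D2:**
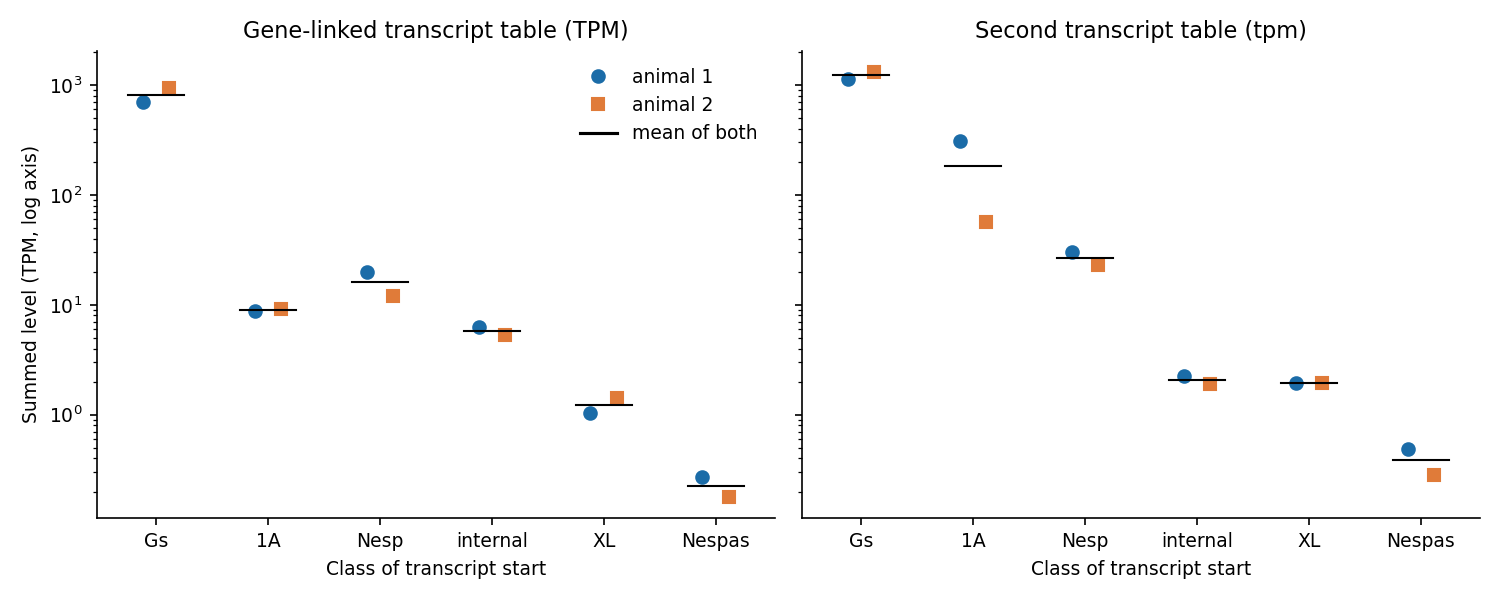
Summed level of each class of start, in TPM on a log axis, for animal 1 (circles), animal 2 (squares) and their mean (lines), in the gene-linked transcript table (left) and the second transcript table (right). Gs starts lead in both tables, and the 1A starts sit far higher in the second table than in the gene-linked one.

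The Gs starts, which make G alpha s, summed to 692 and 934 TPM in animals 1 and 2. The second table gave 1140 and 1311 tpm. Scaled counts were 1.25-fold higher in animal 2 (95% counting interval 1.24 to 1.27) and 1.28-fold higher in the second table (1.26 to 1.29). Their summed count was higher in animal 2 by either table. Nearly all of this came from Gnas-208, Gnas-206 and Gnas-207, which together held 94.9% and 96.1% of Gnas TPM in the gene-linked table.

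Gnas-208, the form with exon 3, was at 287 TPM in animal 1 and 335 TPM in animal 2. It was the leading Gnas transcript by mean in the gene-linked table, with 39.4% and 34.9% of Gnas TPM. Gnas-206, which lacks both exon 3 and the 3-base insert, was at 243 and 364 TPM, or 33.3% and 37.9%, so it was below Gnas-208 in animal 1 and above it in animal 2. Gnas-207, which lacks exon 3 and carries the insert, was at 161 and 225 TPM, or 22.1% and 23.4%. The authors' 95% credibility bounds for animal 1 did not overlap. They were 270 to 290 TPM for Gnas-208, 226 to 253 for Gnas-206 and 147 to 167 for Gnas-207. For animal 2 the bounds were 317 to 340 TPM for Gnas-208 and 342 to 374 TPM for Gnas-206. These did not overlap either, but their order was reversed, so the bounds do not settle which of these forms leads.

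The second table divided the same 3 forms differently. Gnas-207 led there at 512 and 621 tpm, Gnas-208 followed at 448 and 466 tpm, and Gnas-206 was lowest at 176 and 224 tpm. Gnas-207 and Gnas-206 thus changed places between the tables in both animals. Besides the insert, Gnas-207 is annotated to start 91 bases upstream of Gnas-206. In stretches of 31 bases, 123 of 1759 in Gnas-207 were absent from Gnas-206, and 29 of 1665 in Gnas-206 were absent from Gnas-207.

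The share of exon 3 was more alike between the tables than the share of the insert. Among Gs transcripts, exon 3 was in 41.5% of TPM in animal 1 and 36.3% in animal 2 (38.9% ± 3.7), against 39.5% and 35.6% in the second table (37.5% ± 2.8). In all 4 of these values the form without exon 3 was the larger part, and animal 2 was the lower animal in both tables. Over all 15 transcripts that join exon 2 to exon 4, the share was 43.3% and 37.3%, and 52.9% and 38.3% in the second table. These include Gnas-218, a noncoding form with exon 3 at 246 and 0 tpm in the second table. Over the 11 protein-coding ones the share was 42.9% and 37.2%, and 42.4% and 37.6% in the second table. The 3-base insert was in 39.9% and 38.2% of TPM among Gs forms without exon 3, but in 74.4% and 73.5% in the second table. The animals lay within 2 percentage points of each other in either table, while the tables lay on opposite sides of an even split.

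**Figure D3:**
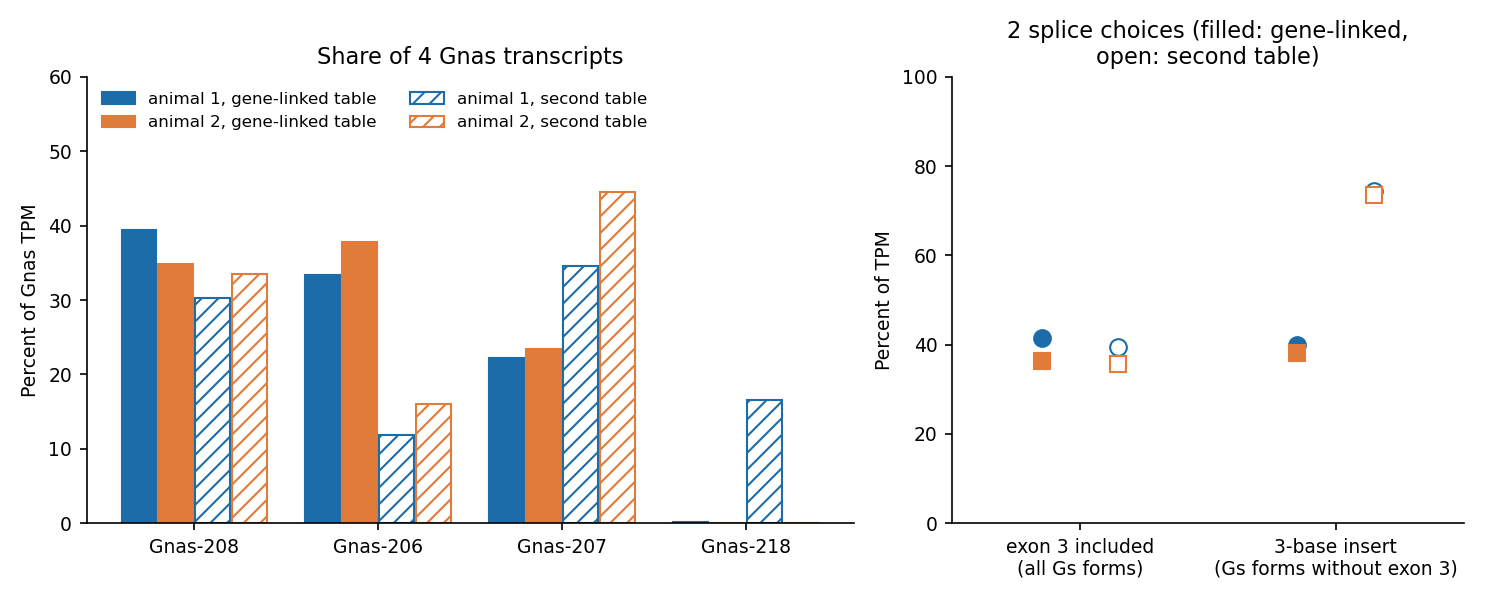
Left, percent of Gnas TPM in 4 transcripts by animal (colour) and table (filled bars for the gene-linked table, hatched bars for the second). Right, percent of TPM with exon 3 among Gs forms and with the 3-base insert among Gs forms without exon 3; the exon 3 share lies near 40% in both tables, and the insert share near 40% in one and near 74% in the other.

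The other Gs transcript, Gnas-205, which stops before exon 4, was at 1.37 and 9.36 TPM, and at 3.84 and 0 tpm in the second table. The animals took opposite orders in the 2 tables, and the authors' lower bound for animal 1 was near 0.

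The Nesp starts were lower in animal 2, unlike the Gs starts. They summed to 20.01 and 11.96 TPM in animals 1 and 2 (2.75% and 1.24% of Gnas), and to 30.1 and 23.2 tpm in the second table (2.03% and 1.66%). Scaled counts were 1.46-fold higher in animal 1 (95% counting interval 1.34 to 1.60), and 1.38-fold higher in the second table (1.28 to 1.49). Gnas-211, the full-length Nesp transcript, was at 13.1 and 10.4 TPM, and at 25.9 and 16.5 tpm. Gnas-214, a short Nesp transcript, added 6.08 and 0.97 TPM but close to 0 and 5.67 tpm, so its order turned between the tables. Gnas-215 reached 3.11 and 0.21 tpm in the second table, and 0.24 and 0 TPM in the gene-linked one. Gnas-210, which ends before the shared exons and also codes for the Nesp protein, was at 1.11 and 0.86 tpm and at 0.59 and 0.57 TPM. For Gnas-211 alone, scaled counts were 1.35-fold higher in animal 1 (1.23 to 1.48) and 1.43-fold higher in the second table (1.31 to 1.55). The direction therefore did not rest on Gnas-214.

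Genes of the medulla were lower in animal 2 as well. The 7 chromaffin markers reported had a lower scaled count there, and 5 of them passed 1.2-fold, against 16.9% of all genes. They had a median log2 ratio of −0.31 and a range of −0.57 to −0.12, against −0.55 for the Nesp starts and a median of −0.01 over all genes. They were Chgb (716 and 557 TPM), Chga, Scg2 (262 and 259 TPM), Th (210 and 184 TPM), Dbh (140 and 121 TPM), Pnmt (151 and 109 TPM) and Slc18a1 (8.96 and 8.37 TPM). Their summed level was 2085 and 1749 TPM. Of the 6 steroid cell markers 4 were higher in animal 2, with a median of 0.13: Star, Hsd3b1 (3691 and 4620 TPM), Cyp21a1 (3321 and 3862 TPM) and the ACTH receptor gene Mc2r (83.7 and 122 TPM). Mc2r alone of the 6 passed 1.2-fold, against 12.8% of all genes. Cyp11a1 (2492 and 2297 TPM) had a lower scaled count in animal 2. So had Nr5a1 (250.09 and 265 TPM), but the counting interval of its fold, 0.969 to 1.004, holds 1. By TPM 5 of the 6 markers were higher in animal 2. The log2 ratio of the Gs starts was 0.33. With spike-in counts as the scale the chromaffin median was −0.11, with 6 of 7 genes lower in animal 2, and the Nesp starts were at −0.34. The part of the tissue make-up in these ratios was not tested.

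**Figure D4:**
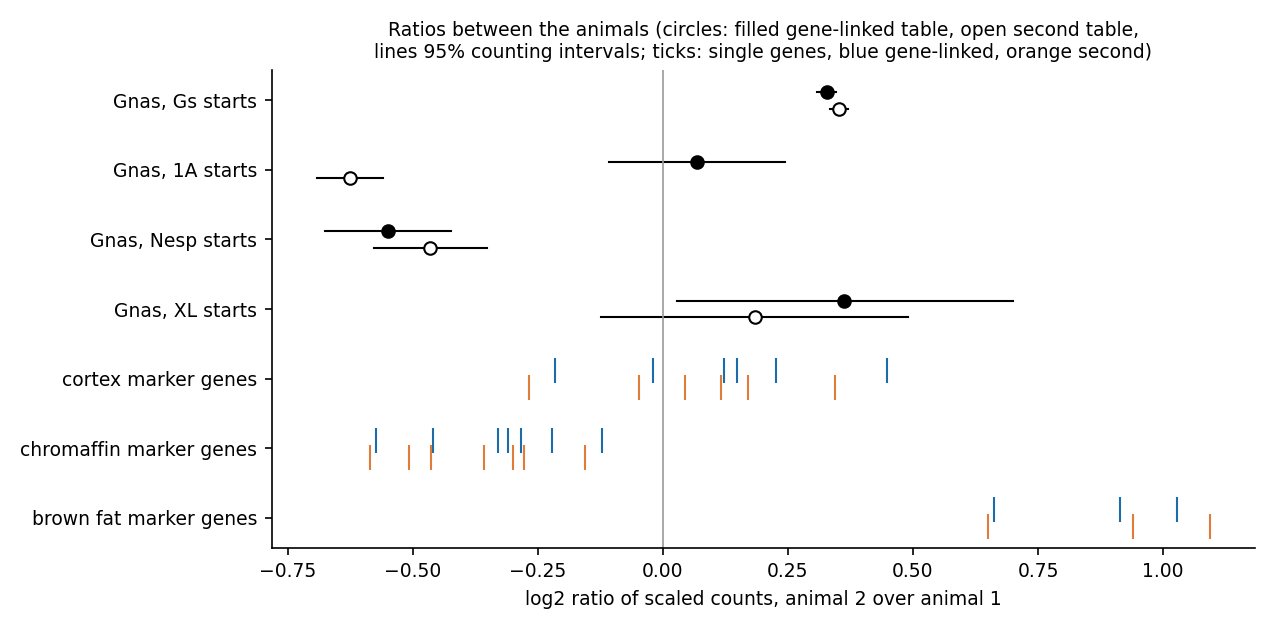
Log2 ratio of scaled counts, animal 2 over animal 1, for 4 classes of Gnas start (circles, filled for the gene-linked table and open for the second, lines for exact 95% counting intervals) and for single marker genes (ticks, blue for the gene-linked table and orange for the second). Nesp starts and chromaffin markers lie left of 0 in both tables, Gs starts and brown fat markers lie right of 0, and the 1A starts lie on different sides of 0 in the 2 tables.

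The XL starts were detected at a low level. Their 7 transcripts summed to 1.03 and 1.41 TPM (0.141% and 0.147% of Gnas), and to 1.93 and 1.96 tpm in the second table. Only 1 XL transcript reached 1 TPM in any column: Gnas-204, a form of 2 exons that does not enter the shared exons, at 0.46 and 0.80 TPM and at 0.58 and 1.09 tpm. The full-length forms Gnas-201, Gnas-203, Gnas-209, Gnas-223 and Gnas-224 ranged from 0 to 0.49 in both tables. Scaled counts of the XL starts were 1.29-fold higher in animal 2 with an interval of 1.02 to 1.63, and 1.14-fold in the second table with an interval of 0.917 to 1.41, which holds 1. A difference between the animals was not detectable at this depth in the second table. Nesp transcripts were the more abundant of the 2 forms known for opposite parental copies, at 15.985 ± 5.69 TPM against 1.22 ± 0.27 for XL.

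The 1A starts gave no stable level. They summed to 8.78 and 9.21 TPM in animals 1 and 2 in the gene-linked table and to 309 and 56.1 tpm in the second. Gnas-218, a noncoding transcript of 607 bases, was at 1.63 and 0.44 TPM in the one table and at 246 and 0 tpm in the other. Without it the second table gave 63.3 and 56.1 tpm for the 1A starts, and a ratio of 1.04-fold between the animals (95% counting interval 0.984 to 1.09). With it the second table put the 1A starts 1.54-fold higher in animal 1, while the gene-linked table gave 1.05-fold higher in animal 2 (0.928 to 1.18).

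Among the other 1A transcripts, Gnas-202, which runs on through the Gs start and codes for G alpha s with exon 3, was at 2.79 and 3.29 TPM and at 27.3 and 25.9 tpm. Gnas-212 was at 2.44 and 1.58 TPM and at 22.3 and 13.5 tpm. Gnas-217 was at 0 and 1.66 TPM and at 13.7 and 15.2 tpm, Gnas-219 at 1.55 and 2.24 TPM and at 0 and 0.11 tpm, and Gnas-221 at 0.37 and 0 TPM and at 0 and 1.31 tpm. Gnas-202 and Gnas-212 were each several fold higher in the second table in both animals. The retained-intron transcripts inside the gene were Gnas-216, at 4.41 and 3.26 TPM but listed at 0 in the second table, and Gnas-213, at 1.81 and 2.00 TPM and at 2.26 and 1.91 tpm.

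Nespas (ENSMUSG00000086537.7; chr2:174281237-174295436, − strand, 14200 bases) was close to the limit of detection. It had 13 expected counts in animal 1 and 9 in animal 2, with exact 95% Poisson limits of 6.92 to 22.2 and 4.12 to 17.1. Its level was 0.27 and 0.18 TPM (0.225 ± 0.064), and 0.485 and 0.283 tpm in the second table. The log2 ratio of animal 2 over animal 1 was −0.52, and the counting interval of the fold, 0.258 to 1.73, holds 1, so a difference between the animals was not detectable at this depth. Within a library the log2 level of Nespas over Gnas was −11.40 and −12.38 (−11.89 ± 0.70), so that Gnas was 2697 and 5346 times higher.

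The single-exon transcript Nespas-201 was at 0.17 and 0.11 TPM, Nespas-203 at 0.09 and 0.08 TPM, and Nespas-202 at 0 in the gene-linked table. Of the 1083 bases of Nespas-201, 988 (91.2%) lie over Gnas exons on the opposite strand. The labels link a directional library kit, and the strand setting of the counting was not given in the sources used here, so a transfer of reads between the antisense partners was not tested. Nespas-202 and Nespas-203 each overlap Gnas exons by 111 bases.

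Gnas held most of the G alpha message of the gland. Of the TPM summed over the 16 genes for G protein alpha subunits, Gnas took 74.6% and 78.9% in animals 1 and 2, and 77.7% and 79.1% in the second table. The next were Gnai2 at 72.8 and 68.7 TPM and Gnai3 at 43.5 and 40.7 TPM, both inhibitors of adenylyl cyclase, and Gna12 at 33.6 and 40.1 TPM. Gnas lay above Gnai2 by far more than the spread between the animals, while Gnai3 (42.1 ± 2.0) and Gna12 (36.8 ± 4.6) differed by less than their summed spread. The lowest were the transducin and gustducin genes of sensory cells, Gnat1 at 0.12 and 0.13 TPM and Gnat3 at 0.02 and 0.05 TPM.

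**Figure D5:**
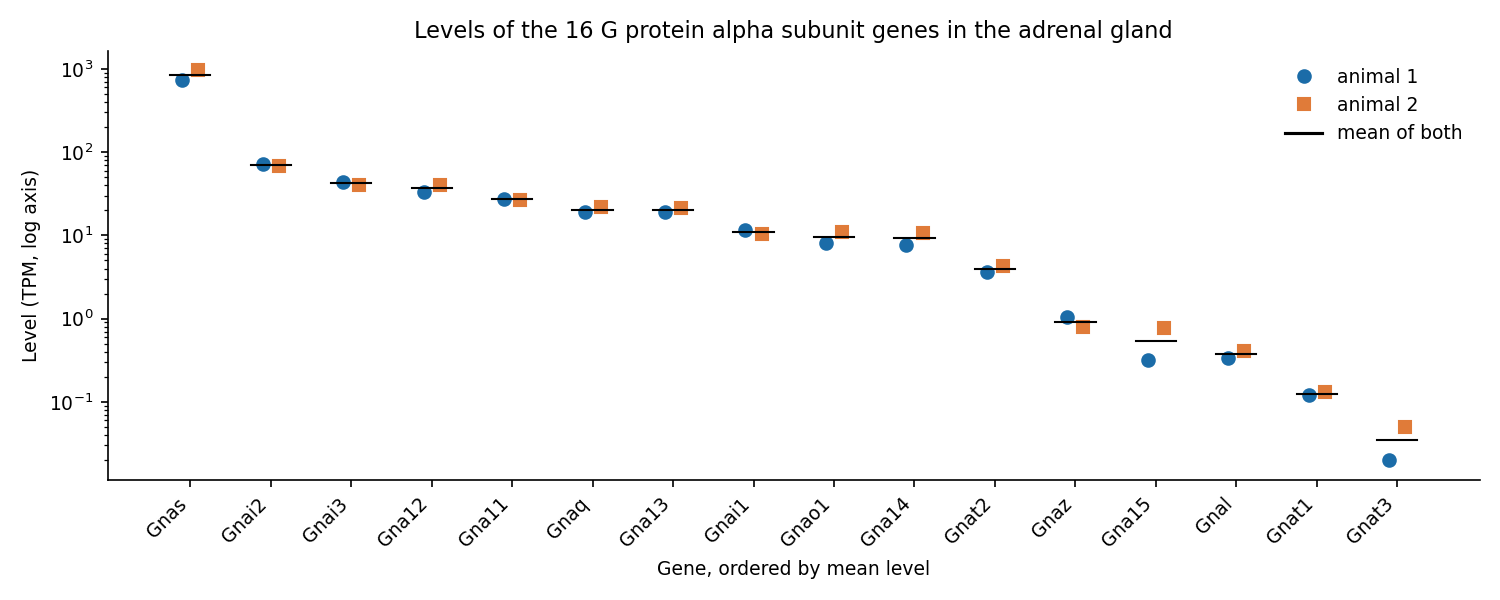
Level of each of the 16 G alpha genes in TPM on a log axis, in order of mean level, for animal 1 (circles), animal 2 (squares) and their mean (lines). Gnas stands at 728 and 962 TPM, above Gnai2 at 72.8 and 68.7 TPM.

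Of the 14 G alpha genes with at least 10 mean counts, 3 were 1.2-fold or more higher in animal 2 (12.8% of all genes) and 1 was so in the other animal (16.9% of all genes), and the median log2 ratio was 0.06. Apart from Gnas these were Gna14, Gna15 and, in the other direction, Gnaz, which are named after their values were seen. Gna15 rested on 21 and 31 counts and Gnaz on 91 and 65. The shares of all genes, here and for the other lists, are over genes with at least 100 mean counts. List genes needed only 10, so the shares are not matched for depth. The genes for the beta and gamma subunits were led by Gnb2 (190 and 211.87 TPM), Gnb1 (119 and 157 TPM), Gng5 (78.6 and 109 TPM) and Gng12 (27.7 and 30.7 TPM), and the lowest were Gng8 (0.09 and 0.15 TPM) and Gngt1 (0 and 0.03 TPM). Of 14 with a ratio, 1 was 1.2-fold or more higher in animal 2 and 4 were so in the other animal, against the same 12.8% and 16.9% of all genes. Their median was −0.12, which turned to 0.09 with spike-in counts as the scale and to 0.10 by TPM. Among 11 chaperones and regulators, 2 passed this fold in animal 2 and 3 in the other animal (12.8% and 16.9% of all genes), at a median of 0.10. Of the 2, Grk3 lay on the line at 1.2005-fold and is named for that. Of the 3, Arrb1 also lay close to it, at 1.202-fold higher in animal 1. Rgs2, which speeds the switching off of G proteins, was the highest of the 11 at 40.2 and 119 TPM. Its scaled count was 2.25-fold higher in animal 2. Ric8a (19.3 and 20.96 TPM), the receptor kinase gene Grk2 (14.8 and 17.2 TPM) and the arrestin gene Arrb1 (15.5 and 13.4 TPM) followed, and Gpsm1 (3.77 and 3.26 TPM) and Gpsm2 (0.77 and 0.59 TPM) were lowest. Over all 39 G protein genes 6 were 1.2-fold or more higher in animal 2 and 8 in animal 1, shares near the 12.8% and 16.9% of all genes. By sign alone 18 were higher in animal 2 and 21 in animal 1, against 29 and 10 with spike-in counts as the scale.

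The adenylyl cyclases, the enzymes that G alpha s activates, were far less abundant than Gnas. Adcy9 (15.4 and 14.97 TPM), Adcy6 (13.2 ± 1.2 TPM), Adcy3 (10.3 and 15.02 TPM) and Adcy5 (3.71 and 3.14 TPM) led, and Adcy2 (0.22 and 0.25 TPM) and Adcy8 (0.24 and 0.05 TPM) were lowest. None of 9 was 1.2-fold or more higher in animal 2 and 2 were so in animal 1, against 12.8% and 16.9% of all genes. Of those called, Adcy8 rested on 41 and 7 counts. The median log2 ratio of −0.11 turned to 0.10 with spike-in counts as the scale and to 0 by TPM. The 9 genes summed to 48.3 and 51.7 TPM.

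Nespas was the lowest of 9 imprinted noncoding RNAs. Meg3 (227 and 287 TPM) and Rian (142 and 186 TPM), both of the Dlk1 domain, Peg13 (33.1 and 37.8 TPM) and Mirg (17.8 and 17.9 TPM) led, and Snhg14 (1.14 ± 0.08 TPM) was the lowest but for Nespas by mean, level with Kcnq1ot1 (0.80 and 1.49 TPM). Of these 9, 3 were 1.2-fold or more higher in animal 2 (12.8% of all genes) and 1 in animal 1 (16.9%). The last was Nespas, whose counting interval holds no change. Gnas was above all 16 other imprinted coding genes examined, of which Dlk1 (255 and 216 TPM), the cell cycle inhibitor Cdkn1c (214 and 233 TPM), Grb10 (26.9 and 30.2 TPM) and Sgce (20.2 and 25.4 TPM) led, and Zim1 (1.13 and 1.48 TPM) and Phlda2 (0 and 0.14 TPM) were lowest. Of 15 with a ratio, 2 were 1.2-fold or more higher in animal 2 and 3 in animal 1, shares near the 12.8% and 16.9% of all genes.

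The genes beside the locus had no counts or were moderately expressed. On the left the nearest were the microRNA genes Mir298, Mir296 and Gm27591, each with 0 counts in both animals. These genes are very short, so a count of 0 does not show that they are silent. On the right the nearest was Nelfcd, a subunit of the negative elongation factor, 69.1 kb away at 16.9 and 16.9 TPM, then the protease gene Ctsz at 53.3 and 65.6 TPM, and the pseudogene Rpl30-ps5 at 0. Nelfcd and Ctsz were 0.963-fold and 1.15-fold in animal 2 against animal 1, on either side of no change. Inside Gnas on the opposite strand, the annotated gene Gm20721 had 37 and 34 counts, or 0.76 and 0.74 TPM.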

How the data were processed

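Total RNA of 2 adrenal libraries was sequenced after ribosomal RNA reduction, from 300 ng of RNA with ERCC spike-ins, per the labels. The authors deposited a gene table and a transcript table with expected counts, TPM, each transcript's percent of its gene, and signal columns of TPM bounds and posterior SDs. A second transcript table holds estimated counts and tpm. All use mm10 and GENCODE M21, per the deposited lists of files; aligners, versions and strand settings are not given in the sources used here. Per the file headers, counts in both are expected or estimated, so reads shared by transcripts are divided between them and the division can move transcript values.

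The members and lists were chosen with earlier results of these data known. Transcripts were joined to GENCODE M21 exons. Expected counts (rounded for the scaling) were scaled by edgeR 4.0.16 (trimmed mean of M-values), with DESeq2 1.42.0 size factors, spike-in counts, total counts, TPM and the second table as alternatives. Log2 ratios used a prior count of 0.5. Exact 95% intervals of ratios and counts cover counting error only. A count of 0 was taken to allow up to 3 counts, which is a set floor and not a limit of these intervals. With 1 group of 2 libraries there is no test and no p-value; the 1.2-fold call was chosen after values were seen. The ratio step was tested on simulated data. Genes and transcripts were named by rule: members, transcripts at 1 TPM or more in any column, the 4 highest and 2 lowest of each list, all of lists of up to 8 except 1 chromaffin marker not reported here, and 3 neighbours on each side; names chosen after their values were seen are Gna14, Gna15, Gnaz, Grk3 and Kcnq1ot1.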

Additional observations from a re-analysis of the deposited data

How the results depend on the processing

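The mean level of Gnas was 845 TPM and ranged from 728 to 962 when either animal was left out. It was 1439 tpm in the second table and 2497 TPM when rescaled to nuclear protein-coding genes. Nespas moved from 0.225 TPM (0.18 to 0.27 with 1 animal left out) to 0.384 and 0.678 under the same alternatives. The log2 ratio of Gnas, 0.30, was 0.51 by spike-in counts, 0.25 by total counts, 0.40 by TPM and 0.26 in the second table. Spike-in and TPM scaling moved the median of all genes to 0.19 and 0.11, and Gnas lay 0.29 to 0.32 above that median under each scaling. A single factor per library shifts all genes alike, so only TPM (0.29) and the second table (0.30) could change that gap much. The G protein median, −0.00, became 0.20 by spike-in counts and 0.17 by TPM. The XL share of 0.144% was 0.135% in the second table, 0.329% by expected counts and 0.123% over protein-coding transcripts. The exon 3 share of 40.3% (37.3% to 43.3% with 1 animal left out) was 45.6% in the second table, and the share of Gnas-208, 37.1%, was 31.8%. Over protein-coding transcripts alone the mean exon 3 share was 40.0% in both tables. The log2 ratio of the 1A starts turned from 0.07 to −0.63 in the second table, where Gnas-218 decided it. Of the other values under the alternatives fixed for these results, 40 moved by less than the spread between animals or the counting interval. They include the values with 1 animal left out, which with n = 2 always stay within the SD. They also include the Nespas ratios, whose counting interval is wide (0.258 to 1.73). The count of 40 therefore does not measure how stable the results are. Under all 6 scalings and units compared, the Nesp starts were lower in animal 2 (log2 ratio −0.74 to −0.34) and the Gs starts higher (0.27 to 0.53). No paired analysis was possible because there is 1 group. The alternatives by start class at 1 kb, of the 3-base insert and of class ratios were chosen after seeing the data.

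With 2 libraries the error of every level is poorly known, and the labels do not settle whether they come from separate animals. Transcript shares among forms without stretches of their own depend on the quantification. At this depth Nespas and the XL transcripts rest on few reads.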
